A study of Homo sapiens with 96 samples.

Results

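Exon choice in A549 cells, a human lung adenocarcinoma line, was compared after 7 days in GSK591 and after 7 days in DMSO. GSK591 inhibits the protein arginine methyltransferase PRMT5 and was given at 1 µM, and the controls received 0.01% DMSO. Poly(A) RNA was sequenced from 3 libraries of each group, which are 6 of the 96 samples of the series, and n is 3 libraries in each group for every mean ± SD given here. The events described are all cassette exons (SE), mutually exclusive exon pairs (MXE), alternative 3′ splice sites (A3SS) and alternative 5′ splice sites (A5SS) that the splicing program rMATS listed for the pair of groups, 118704 events in all, of which 98039 had at least 10 reads in each of the 6 libraries and were tested. The series also holds DMSO and GSK591 at 4 days, GSK591 at 2 days and MS023, an inhibitor of Type I PRMTs, at 7 days in the same line, and these are used below for comparison. All groups come from 1 cell line, and the libraries of a group may differ only technically, since separate cultures are not named in the labels.

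PRMT5 makes symmetric dimethylarginine, above all on the Sm proteins that form the core of the spliceosomal snRNPs, and its partner methylosome proteins hand these Sm proteins on for snRNP assembly. Splice sites are first recognised by U1 snRNP at the 5′ site and by U2AF and U2 snRNP at the 3′ site. In human genes most pairing of sites takes place across the exon, and across the intron where introns are short. SR proteins generally favour the use of exons to which they bind, hnRNP proteins often oppose it, and many genes of both families carry "poison" exons whose inclusion introduces a stop codon and sends the transcript to nonsense-mediated decay (NMD).

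The measure is the inclusion level Ψ, the share of transcripts that carry the inclusion form, on a scale from 0 to 1, calculated from reads per length of each form. ΔΨ is Ψ with GSK591 minus Ψ with DMSO. The inclusion form is the exon itself for SE, the longer exon for A3SS and A5SS, and, for MXE, the exon of the pair that lies nearer to the 5′ end of the transcript. Where transcripts carry both exons of an MXE pair, Ψ compares the reads of both and is not a share of transcripts. For example, a pair of PKM exons that each had a mean Ψ of 1 as SE stood at 0.676 with DMSO and 0.664 with GSK591 as MXE. The 6 libraries held between 69193658 and 73283532 reads on the listed events, with reads counted again for each event they touch. Epithelial genes CDH1, KRT8, KRT18 and EGFR had 27 tested events together, whereas EPCAM and KRT19 had none listed, and of the leukocyte genes PTPRC and CD3E had none and CD79A had 1 event that was listed but too thinly read to be tested. The direction of each difference rests on the first group of the table being the 7-day DMSO libraries, which was read from the group codes and the labels of the time points. The libraries of each group are called a, b and c in the order of the table.

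The exons on which the account turns most are shown first, each read in the direction of the transcript from GRCh37. Capitals mark the exon, and lower case marks the last 20 intron bases before it and the first 6 intron bases after it, which hold the 3′ and 5′ splice sites. The first 5 exons lost inclusion with GSK591, the next 4 gained it, and the last pair are the mutually exclusive exons of H2AFY.
BIN1, 90 bases, chr2:127808730-127808819, minus strand: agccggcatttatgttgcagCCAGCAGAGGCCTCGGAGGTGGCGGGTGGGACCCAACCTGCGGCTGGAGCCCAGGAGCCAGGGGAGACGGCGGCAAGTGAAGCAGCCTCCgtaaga
GPR137, 150 bases, chr11:64055537-64055686, plus strand: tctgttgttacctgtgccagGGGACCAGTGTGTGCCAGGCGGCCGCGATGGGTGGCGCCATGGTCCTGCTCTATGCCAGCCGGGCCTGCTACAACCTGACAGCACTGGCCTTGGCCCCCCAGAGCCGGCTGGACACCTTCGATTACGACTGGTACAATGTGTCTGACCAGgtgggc
SRSF10, 51 bases, chr1:24298063-24298113, minus strand: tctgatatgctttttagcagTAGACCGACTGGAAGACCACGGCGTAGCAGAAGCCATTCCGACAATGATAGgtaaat
PCBP2, 39 bases, chr12:53861589-53861627, plus strand: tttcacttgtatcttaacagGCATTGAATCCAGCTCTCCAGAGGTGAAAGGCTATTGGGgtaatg
CREBBP, 45 bases, chr16:3827614-3827658, minus strand: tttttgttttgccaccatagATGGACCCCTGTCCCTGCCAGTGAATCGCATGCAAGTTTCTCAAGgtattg
SMPD4, 87 bases, chr2:130918759-130918845, minus strand: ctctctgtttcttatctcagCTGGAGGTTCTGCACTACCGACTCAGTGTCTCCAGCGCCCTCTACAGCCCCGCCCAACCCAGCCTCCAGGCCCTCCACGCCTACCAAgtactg
STK39, 63 bases, chr2:168921829-168921891, minus strand: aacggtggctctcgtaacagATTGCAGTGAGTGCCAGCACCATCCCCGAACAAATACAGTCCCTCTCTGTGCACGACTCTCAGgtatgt
SRRM1, 42 bases, chr1:24989674-24989715, plus strand: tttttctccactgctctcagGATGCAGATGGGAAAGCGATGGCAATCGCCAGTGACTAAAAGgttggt
MICAL3, 63 bases, chr22:18309220-18309282, minus strand: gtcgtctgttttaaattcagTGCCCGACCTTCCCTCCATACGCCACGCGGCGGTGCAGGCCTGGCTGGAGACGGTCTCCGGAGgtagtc
H2AFY, macroH2A1.1 exon, 91 bases, chr5:134686513-134686603, minus strand: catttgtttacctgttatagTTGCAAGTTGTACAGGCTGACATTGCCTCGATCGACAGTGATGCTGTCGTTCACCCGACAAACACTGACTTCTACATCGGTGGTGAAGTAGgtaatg
H2AFY, macroH2A1.2 exon, 100 bases, chr5:134688636-134688735, minus strand: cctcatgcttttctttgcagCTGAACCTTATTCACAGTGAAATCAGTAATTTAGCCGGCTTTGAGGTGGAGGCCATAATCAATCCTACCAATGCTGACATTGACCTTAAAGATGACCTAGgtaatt

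GSK591 moved cassette exons in both directions, with more losses than gains. Of 70375 SE events tested, 3246 were called at an adjusted p under 0.05, which is 4.61% of those tested, with 1351 higher (1.92%) and 1895 lower (2.69%). Among the 26599 SE events with at least 10 reads on the less used form 12.1% were called. The median ΔΨ was 0.0925 among the higher and −0.107 among the lower events, and 1622 of the called events differed by at least 0.1 and 753 by at least 0.2. The events that lost inclusion had a median Ψ of 0.917 in DMSO, whereas those that gained it started from a median of 0.48. With the event of smallest p kept for each exon, which favours calls, the median over all 19775 exons with at least 10 reads on the less used form was 0.903, near that of the losses. Of these exons 15.1% were called lower at a DMSO Ψ of 0.2 to under 0.4, and 9.06% at 0.9 or more. Over the 4 event types together 4934 of 98039 events were called (5.03%), 2164 higher (2.21%) and 2770 lower (2.83%), in 2515 of 10633 genes (23.7%). In contrast to these opposing changes, the mean Ψ over all SE events hardly moved, from 0.8435 ± 0.0012 to 0.8414 ± 0.00078, and although no GSK591 library reached a DMSO library the exact permutation test gave p = 0.1, two-sided, the smallest that 3 against 3 libraries allow.

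Among the largest losses was the 90-base exon of BIN1, which encodes a membrane-bending adaptor protein of the amphiphysin family. Its Ψ was 0.856, 0.859 and 0.8 in the DMSO libraries and 0.248, 0.291 and 0.315 with GSK591. All 3 treated libraries lay far below all controls, a ΔΨ of −0.554 (adjusted p = 1.09e-29, quasi-binomial test). In this event the coding exon is followed by an intron of only 241 bases and lies 6229 bases from its upstream flank. Other annotated exons lie within that stretch. The flank, of 129 bases at chr2:127815049-127815177, was read as its mutually exclusive partner in a separate event. There the share of the 129-base exon rose from 0.293 ± 0.0177 to 0.778 ± 0.0201 (adjusted p = 1.91e-08). An annotated transcript holds both exons, so that shift need not be a choice between them. With a nearer flank and at least 21 reads per library the 90-base exon was at 1 ± 0 and 0.988 ± 0.0208 and was not called (adjusted p = 0.661). With a more distant flank and at least 57 reads it fell from 0.677 ± 0.0457 to 0.42 ± 0.0657 (adjusted p = 4.18e-05).

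GPR137, a membrane protein of lysosomes, lost a 150-base coding exon that lies between introns of 118 and 125 bases. Its Ψ was 0.935, 0.861 and 0.921 with DMSO and 0.443, 0.442 and 0.416 with GSK591. The treated libraries were nearly equal and the groups stood well apart (ΔΨ −0.472, adjusted p = 7.08e-23). ARRDC1, an arrestin-domain adaptor, had an 88-base exon with 0.786, 0.85 and 0.976 in DMSO and 0.327, 0.363 and 0.217 in GSK591 (adjusted p = 1.92e-15), and its introns are 416 and 104 bases long. OGFOD2, a predicted oxygenase, lost a 167-base exon from 0.931 ± 0.0332 to 0.463 ± 0.0716 (adjusted p = 5.96e-17), and the 221-base segment of the TMEM256-PLSCR3 readthrough transcript went from 0.66 ± 0.0222 to 0.191 ± 0.0458 (adjusted p = 1.01e-42). The last of these overlaps PLSCR3 itself, so its reads cannot be assigned to one or the other gene. With other flanks the OGFOD2 exon was at 0.976 ± 0.0119 and 0.983 ± 0.0291 and at 1 ± 0 and 0.994 ± 0.0105, not called (adjusted p 0.811 and 0.668). The GPR137 exon with another flank was at 0.974 ± 0.002 and 0.821 ± 0.0517, also not called (adjusted p = 0.0601). The TMEM256-PLSCR3 segment with another flank was at 0.983 ± 0.0302 and 0.865 ± 0.0386, not called either (adjusted p = 0.11). A 1340-base exon of DPY19L3, a C-mannosyltransferase of the endoplasmic reticulum, is annotated only in a transcript classed as a retained intron, and went from 0.844 ± 0.0934 to 0.322 ± 0.0613 (adjusted p = 2.7e-06).

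Gains were as large. STK39, a kinase that activates sodium and chloride cotransporters, included its 63-base exon in 0.507, 0.598 and 0.55 of transcripts with DMSO and in 0.961, 0.974 and 0.944 with GSK591 (adjusted p = 3.88e-29). The exon was thus nearly constitutive in all 3 treated libraries and optional in all controls. SMPD4, a neutral sphingomyelinase, had its 87-base exon at 0.278, 0.273 and 0.236 with DMSO and at 0.72, 0.707 and 0.698 with GSK591 (ΔΨ 0.446, adjusted p = 8.14e-30). SVIL, the actin-binding protein supervillin, showed a gain in a 171-base exon from 0.127, 0.0995 and 0.159 to 0.621, 0.679 and 0.618 (adjusted p = 6.2e-16). The groups of these exons did not overlap, but neither did those of 3104 of the 3246 called SE events. With other flanks the SMPD4 exon was at 0.894 ± 0.0137 and 0.94 ± 0.0441. The SVIL exon was at 0.757 ± 0.272 and 0.895 ± 0.066 and at 1 ± 0 and 0.988 ± 0.0215, on as few as 16 reads in a library. None of these was called (adjusted p 0.668, 0.523 and 0.725). ASNS, asparagine synthetase, gained a 278-base exon of its untranslated region, from 0.328 ± 0.0755 to 0.862 ± 0.111 (adjusted p = 2.03e-12). With another flanking exon and at least 249 reads per library the same ASNS exon went from 0.104 ± 0.0197 to 0.237 ± 0.0428 (adjusted p = 1.08e-09), and such values of 1 exon with other flanks were looked up after the named values were seen. NME4, a mitochondrial nucleoside diphosphate kinase, had a 178-base exon that went from 0.411 ± 0.0396 to 0.883 ± 0.0435 (adjusted p = 5.86e-09), and a 145-base exon of TBL1X, part of the NCoR corepressor complex, went from 0.384 ± 0.0361 to 0.796 ± 0.0405 (adjusted p = 3.86e-11).

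**Figure D1:**
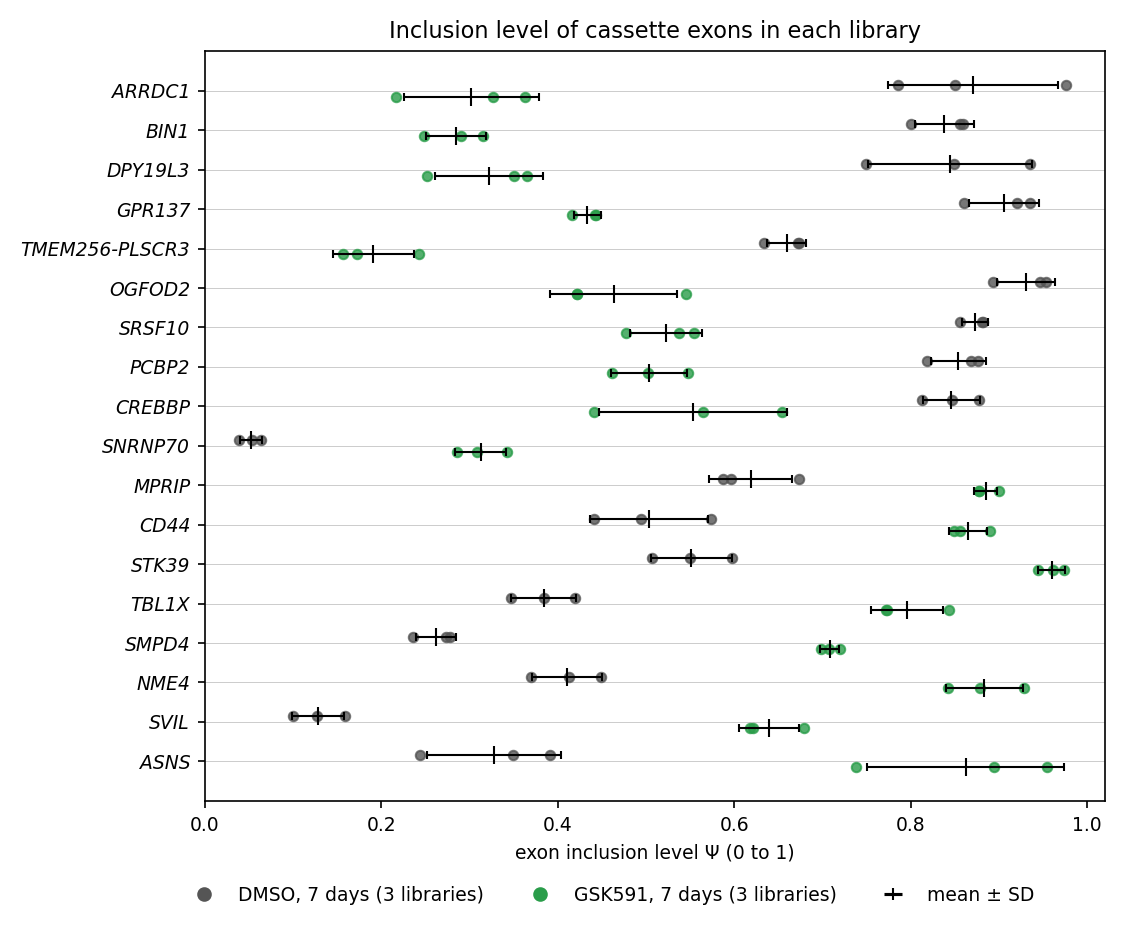
Inclusion level Ψ (0 to 1, x axis) of 18 cassette exons, 1 row per gene, in the 3 DMSO libraries (grey) and the 3 GSK591 libraries (green) at 7 days; black bars are the mean ± SD. The exons are sorted by ΔΨ from ARRDC1 (from 0.871 to 0.302) at the top to ASNS (from 0.328 to 0.862) at the bottom. In no row do the groups overlap, which also holds for 3104 of all 3246 called SE events.

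Losses were more frequent among exons with short neighbouring introns, although exons without a short intron were also called lower. To compare exons once each, 1 event was kept per exon with at least 10 reads on its less used form, 21981 exons in all. The 2142 exons with introns under 500 bases on both sides had a mean Ψ of 0.800, 0.800 and 0.804 in the DMSO libraries and of 0.752, 0.756 and 0.744 with GSK591. All treated libraries were lower, from 0.801 ± 0.0022 to 0.751 ± 0.006, and p was 0.1 in the exact permutation test, the smallest possible. Of these exons 24.3% were called lower and 1.26% higher. The 14722 exons with neither intron under 500 bases went from 0.683 ± 0.0033 to 0.687 ± 0.0013 (exact p = 0.2), with 4.01% called lower and 5.5% higher. Exons with a single short intron lay between, with a shift of −0.00996, 9.54% lower and 6.16% higher.

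On the downstream side the shift was −0.0409 for the 2145 exons followed by an intron under 200 bases, of which 20.9% were called lower, and −0.023 for introns of 200 to under 500 bases. It was −0.00492 for 500 to under 1000 bases and between −0.00366 and 0.0049 for the longer introns. The upstream side gave a like order, with −0.0329 under 200 bases and −0.0204 from 200 to under 500 bases. In a second set, in which the event with the smallest p was kept for each exon, the median downstream intron was 593 bases for the 1749 exons called lower, 2068 bases for the 1258 called higher, and 1957 bases for 19775 exons with at least 10 reads on the less used form. Keeping the smallest p favours calls. The shares by splice site base, GC content, length and annotation given next use this second set, as do the shares by DMSO Ψ. Among the exons named by rule, 12 of the 22 SE events called lower had an intron under 500 bases and 6 of these had both, against 5 and 0 of the 26 called higher.

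**Figure D2:**
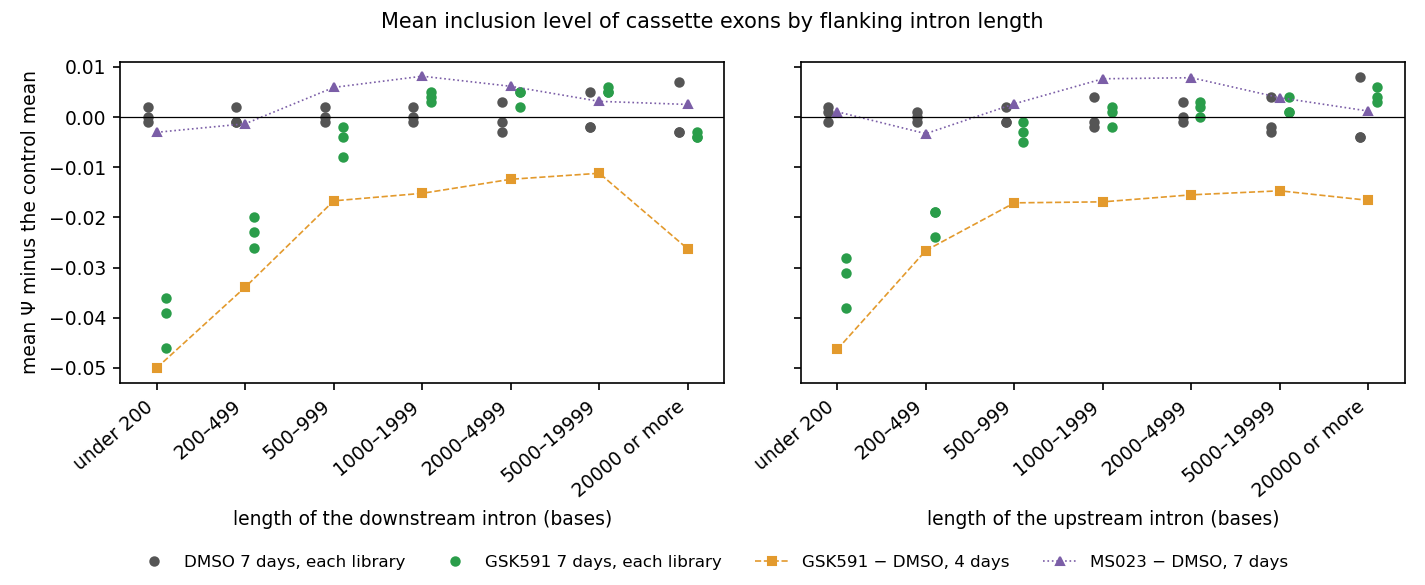
Mean Ψ minus the DMSO mean (y axis) for exons grouped by the length in bases of the downstream intron (left) or the upstream intron (right), with each 7-day library as a point, GSK591 against DMSO at 4 days as squares and MS023 against DMSO at 7 days as triangles. GSK591 libraries lie near −0.04 under 200 bases downstream and near 0 from 1000 bases on, and the 4-day values are lower at every length.

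Splice site bases differed as well. Nearly all sites were regular, with GT or GC at the 5′ site in 100% and AG at the 3′ site in 99.9% of exons called in each direction. The base at intron position +3, where A is the more common base and G the usual alternative, was G in 43.1% of exons called lower, 28.8% of those called higher and 33.7% of all exons of the same depth. The mean shifts given here use the first set, as for the intron lengths. Exons with G there shifted by −0.0111 and those with A by −0.00119 (exact permutation p = 0.1, the smallest possible, and 0.8). Short introns and a G at +3 occur together, and within the exons with 2 introns under 500 bases the shift was −0.0562 with G and −0.0394 with A, whereas with neither intron short it was 0.00433 and 0.00314. The GC content was 54% in exons called lower and 50.2% in those called higher, and the median lengths, 114 and 116 bases, were alike.

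By the annotation, coding exons made up 78.4% of the exons called lower, 60.3% of those called higher and 70.1% of all exons of the same depth. Exons of untranslated regions only were 7.09%, 16.9% and 10% of the same groups, and exons found only in NMD transcripts were 7.2%, 11.6% and 10.5%. Among coding exons, 47.2% of those called lower and 53.4% of those called higher had a length that is a multiple of 3, against 47.6% of all coding exons of that depth. Exons gained with GSK591 thus held a larger share of noncoding and NMD exons than exons lost, but their NMD share was near that of all exons of that depth. The starting level was not held equal in this comparison. At a DMSO Ψ under 0.2, 9.5% of exons were called higher and 4.76% lower, against 2.46% and 9.06% at 0.9 or more.

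In genes of SR proteins and their relatives the called events were largely gains. Of 16 tested genes 10 had a called event (62.5% against 23.7% of all genes), and of 129 events 17 were higher and 6 lower (17.8% called, against 5.03% of all events). Among these, 8 gains were of exons annotated only in NMD transcripts, in SRSF3, SRSF4, SRSF6, SRSF7 and SRRM1, and 1 such exon, in SRRM2, was lower. Of such exons 19 were tested, 16 of them with at least 10 reads on the less used form. The 8 include 2 overlapping exons of SRSF7 and 2 of SRSF4, which share their 3′-most base in the transcript and so share reads. Over all genes 7.01% of 2067 NMD exons with at least 10 reads on the less used form were higher and 6.1% lower. In hnRNP genes 3 of 9 tested were higher and 2 lower, and in spliceosome genes 6 of 33 were higher and 5 lower. Of these 9 and 33 exons, 8 and 29 had at least 10 reads on the less used form. The SR exons were singled out after their values were seen. The 456-base exon of SRSF3 at chr6:36567598-36568053 rose from 0.0126 ± 0.00208 to 0.0376 ± 0.00326 (adjusted p = 1.25e-29), the 449-base exon of SRSF7 from 0.0866 ± 0.00801 to 0.153 ± 0.0145 (adjusted p = 9.01e-24) and the 268-base exon of SRSF6 from 0.145 ± 0.0216 to 0.225 ± 0.00989 (adjusted p = 2.33e-07). Their levels remained low in both groups. NMD removes transcripts with such exons, and Ψ counts only the transcripts present when the cells were taken.

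SRSF10, an SR protein that acts as a sequence-specific activator once phosphorylated, included its 51-base coding exon at 0.881, 0.882 and 0.856 with DMSO and 0.555, 0.477 and 0.537 with GSK591 (adjusted p = 6.3e-22). Controls and treated libraries were far apart. With another flank and at least 41 reads per library the SRSF10 exon was at 0.992 ± 0.0143 and 0.901 ± 0.0326 and was not called (adjusted p = 0.0641). SRRM1, a coactivator that bridges SR proteins and snRNPs, gained a 42-base exon, from 0.44, 0.345 and 0.463 to 0.699, 0.665 and 0.666 (adjusted p = 1.53e-09). SREK1, a regulator with SR domains, rose from 0.108 ± 0.0112 to 0.312 ± 0.0361 at a 2868-base exon (adjusted p = 4.48e-25). The SREK1 exon is annotated only in a transcript classed as a retained intron. A 90-base exon of TRA2A, an activator of exons rich in GAA, rose from 0.263 ± 0.0415 to 0.568 ± 0.0758 (adjusted p = 0.0313, with 22 to 39 reads in a library). With another flanking exon and at least 387 reads per library the same TRA2A exon went only from 0.0195 ± 0.00273 to 0.0412 ± 0.00375 (adjusted p = 0.0439). The call of the first TRA2A event was lost without any of DMSO libraries a, b or c or GSK591 libraries a or c, with an adjusted p of up to 0.246.

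Of 23 tested hnRNP genes 19 had a called event (82.6%), with 23 events higher and 28 lower of 368 (13.9% called). PCBP2, which binds C-rich RNA, lost its 39-base coding exon. Its Ψ was 0.868, 0.818 and 0.876 with DMSO and 0.462, 0.548 and 0.502 with GSK591 (adjusted p = 3.92e-31). With another flanking exon and at least 1810 reads per library this PCBP2 exon went from 0.5 ± 0.0298 to 0.153 ± 0.0202 (adjusted p = 2.15e-187). HNRNPC, which binds runs of U and keeps cryptic exons out, had a 26-base exon at 0.822, 0.823 and 0.818 in DMSO and at 0.636, 0.656 and 0.664 in GSK591, with at least 2804 reads per library (adjusted p = 6.9e-81). The groups of both genes did not overlap, and the spread in HNRNPC was far smaller than the difference. With 3 other pairs of flanks the HNRNPC exon had a mean of 0.965 or more in both groups and was not called (adjusted p 0.668, 0.934 and 0.478). In HNRNPH1 the share of the 128-base exon against the 506-base exon of a pair listed as MXE fell from 0.72 ± 0.0271 to 0.545 ± 0.0294 (adjusted p = 3.29e-06). The 506-base exon is annotated only in a transcript classed as a retained intron. PTBP3, a relative of the polypyrimidine tract binding protein, used a 5′ site 9 bases further downstream less, at 0.602 ± 0.0184 against 0.425 ± 0.0544 (adjusted p = 0.000268).

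Other splicing regulators had 14 of 32 genes called (43.8%), with 15 events higher and 13 lower of 451 (6.21% called). LUC7L, a U1-associated protein, rose from 0.102 ± 0.0312 to 0.428 ± 0.0528 at a 70-base exon (adjusted p = 1.05e-17). MBNL1, the muscleblind protein, fell from 0.72 ± 0.0328 to 0.479 ± 0.00515 at a 95-base exon (adjusted p = 4.69e-07), RBFOX2 from 0.911 ± 0.0454 to 0.711 ± 0.0272 at a 40-base exon (adjusted p = 1.01e-06), and SRPK2, a kinase of SR proteins, rose from 0.724 ± 0.105 to 0.912 ± 0.0602 at a 93-base exon (adjusted p = 0.0169). With another flanking exon and at least 180 reads per library that SRPK2 exon was at 0.994 ± 0.00655 and 1 ± 0 and was not called (adjusted p = 0.632). Without DMSO library c, GSK591 library a or GSK591 library c the call of the first SRPK2 event was lost (adjusted p 0.213, 0.0698 and 0.277). With other flanks the MBNL1 exon was at 0.834 ± 0.041 and 0.776 ± 0.0547 and at 0.967 ± 0.0155 and 0.953 ± 0.0423. The RBFOX2 exon was at 1 ± 0 and 0.96 ± 0.0402 with another flank. None of these was called (adjusted p 0.644, 0.831 and 0.583).

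Spliceosome components had 20 of 57 genes called (35.1%), with 23 events higher and 20 lower of 605 (7.11% called). SNRNP70 encodes the U1-70K protein of U1 snRNP. Its 1474-base exon at chr19:49605371-49606844 stood at 0.0394, 0.0533 and 0.0643 with DMSO and at 0.343, 0.309 and 0.286 with GSK591, with at least 3453 reads per library. Every treated library exceeded every control several times over, and limma on log odds weighted by reads gave an adjusted p of 2.97e-08. PRPF40B, a U1-associated protein, lost a 111-base exon between introns of 133 and 302 bases, from 0.85 ± 0.0311 to 0.447 ± 0.0781 (adjusted p = 0.000143). A 70-base exon of TXNL4A, of the U5 snRNP, rose from 0.0503 ± 0.0196 to 0.268 ± 0.0415 (adjusted p = 0.000793). With another flanking exon and at least 495 reads per library the TXNL4A exon was at 0.0181 ± 0.00224 and 0.0356 ± 0.00584 and was not called (adjusted p = 0.0736). PUF60, a U2AF-related factor, rose at a 152-base exon from 0.712 ± 0.0585 to 0.902 ± 0.04 (adjusted p = 0.00847), on at least 74 reads per library. The same PUF60 exon went from 0.0685 ± 0.0148 to 0.123 ± 0.0458 with other flanks and at least 457 reads (adjusted p = 0.00011). The call of the first PUF60 event was lost without DMSO library b, GSK591 library a or GSK591 library c (adjusted p 0.116, 0.0841 and 0.0751).

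Of the protein arginine methyltransferases and their partners 7 of 22 genes were called (31.8%, against 23.7% of all genes), with 6 events higher and 4 lower of 188 (5.32% of events, near the 5.03% of all events). In PRMT5 itself, the target of GSK591, the longer form of an event with 2 alternative 5′ sites, 371 bases apart, rose. Its Ψ was 0.317, 0.275 and 0.364 with DMSO and 0.601, 0.574 and 0.527 with GSK591 (adjusted p = 0.00775). The 371-base segment is annotated only in a transcript classed as a retained intron. Reads inside it count, and whether the rise reflects site use or intron reads was not tested. PRMT7 rose at an 84-base exon from 0.447 ± 0.0363 to 0.688 ± 0.132 (adjusted p = 0.0227) and PRMT2 from 0.867 ± 0.0213 to 0.981 ± 0.0123 (adjusted p = 0.0105), whereas CARM1, or PRMT4, went from 0.26 ± 0.0356 to 0.173 ± 0.00815 at a 69-base exon between introns of 247 and 171 bases (adjusted p = 0.0385). With other flanks and at least 93 reads per library the PRMT7 exon was at 0.964 ± 0.0326 and 0.996 ± 0.00725 and was not called (adjusted p = 0.324). The 4 calls depended on single libraries. The PRMT5 call was lost without DMSO library b or GSK591 library a (adjusted p 0.0543 and 0.0537), that of PRMT7 without DMSO a or b or GSK591 a or b (up to 0.305), that of PRMT2 without DMSO c or GSK591 b or c (up to 0.0754) and that of CARM1 without any library but DMSO a (up to 0.279).

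Mutually exclusive exon events were called in 869 of 17901 cases (4.85%), 364 higher (2.03%) and 505 lower (2.82%). The count fell to 568 without DMSO library a, 467 without DMSO library b, 512 without GSK591 library b and 477 without GSK591 library c. H2AFY encodes the histone variant macroH2A1, whose macroH2A1.1 form binds ADP-ribose and whose macroH2A1.2 form does not. The share of the macroH2A1.2 exon was 0.84, 0.822 and 0.836 with DMSO and 0.537, 0.584 and 0.563 with GSK591, on at least 989 reads per library. The treated libraries were thus all lower (adjusted p = 1.34e-10), and the share of the macroH2A1.1 exon is the remainder of the same pair by construction. EEF1D, an exchange factor of translation elongation, fell from 0.696 ± 0.0109 to 0.364 ± 0.00778 (adjusted p = 1.21e-06), and ADCY6, an adenylyl cyclase, from 0.541 ± 0.0434 to 0.283 ± 0.0365 (adjusted p = 0.0057, but 0.0576 without GSK591 library c). CLIP1, a microtubule plus-end protein, had its 33-base exon, as against the 105-base exon, at 0.0931, 0.0802 and 0.13 with DMSO and at 0.596, 0.396 and 0.601 with GSK591 (adjusted p = 0.000306). RHPN1 rose from 0.496 ± 0.0999 to 0.831 ± 0.0575 (adjusted p = 0.00364). In EEF1D, ADCY6, CLIP1 and RHPN1 an annotated transcript holds both exons of the pair, so the shift need not be a choice between them.

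Of 23 genes known for mutually exclusive exons 19 had a called event of some type (82.6%), with 29 events higher and 30 lower of 345 (17.1% called). FGFR1, a fibroblast growth factor receptor, rose from 0.0727 ± 0.0338 to 0.338 ± 0.0072 at a 151-base exon (adjusted p = 2.01e-16), and MAPK9, the kinase JNK2, fell at a 93-base exon from 0.841 ± 0.0937 to 0.568 ± 0.0912 (adjusted p = 0.0358, lost without any library but DMSO b, with up to 0.346). With another flanking exon and at least 167 reads per library the MAPK9 exon went from 0.301 ± 0.0502 to 0.179 ± 0.0617 (adjusted p = 0.000458). In PKM, which encodes the muscle-type pyruvate kinase, the PKM1 exon at chr15:72495363-72495529 and the PKM2 exon at chr15:72494795-72494961, both of 167 bases, exclude each other. The share of the PKM1 exon in this pair was 0.00914, 0.00919 and 0.007 with DMSO and 0.0205, 0.015 and 0.0203 with GSK591 (adjusted p = 3.92e-06), so PKM2 remained by far the main form in all 6 libraries. A 117-base exon near the 5′ end of PKM had 7 tested events with different flanks, of which 1 was called higher, 1 lower and 5 were not called. It rose in 1 event, on as few as 36 reads in a library, from 0.128 ± 0.0528 to 0.449 ± 0.11 (adjusted p = 2.8e-07), and fell in another, on as few as 14 reads, from 0.926 ± 0.0842 to 0.445 ± 0.131 (adjusted p = 0.000311). In the PKM event with the most reads, at least 8491 per library, the exon was at 0.00175 ± 0.000206 and 0.00251 ± 0.000815 (adjusted p = 0.352). The PKM events were singled out after their values were seen.

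Alternative 5′ sites had the largest share of calls, 507 of 3846 events (13.2%), with 282 using the longer exon more (7.33%) and 225 less (5.85%). Alternative 3′ sites had 312 of 5917 called (5.27%), 167 higher (2.82%) and 145 lower (2.45%). The mean Ψ of A5SS events went from 0.6272 ± 0.0019 to 0.6313 ± 0.0012 (exact p = 0.1, the smallest possible) and that of A3SS events differed by 0.000655 (exact p = 0.5). The median distance between both 5′ sites was 140 bases in A5SS events called lower and 68 in those called higher, against 64 in events with at least 10 reads on the less used form and 81 in all tested, so that the distance in events called higher was close to the background. Between both 3′ sites it was 120 bases in A3SS events called lower and 107 in those called higher, against 41 at the same depth and 49 in all tested. The common pairs of 3′ sites 3 bases apart made up 557 of 3598 distinct A3SS pairs of that depth but only 5 of the 297 called.

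NT5C, a cytosolic nucleotidase, used a 5′ site 80 bases downstream at 0.297, 0.273 and 0.276 with DMSO and at 0.727, 0.719 and 0.842 with GSK591 (adjusted p = 7.38e-37). SLC11A2, an iron transporter, shifted to a site only 5 bases further, from 0.488 ± 0.056 to 0.856 ± 0.022 (adjusted p = 3.2e-10), and PLEKHB2, a protein of recycling endosomes, rose from 0.411 ± 0.105 to 0.753 ± 0.00689 (adjusted p = 3.52e-06). Among the losses were the same regions of OGFOD2 (from 0.887 ± 0.0583 to 0.432 ± 0.0637, adjusted p = 1.01e-11) and TMEM256-PLSCR3 (from 0.586 ± 0.0212 to 0.181 ± 0.0444, adjusted p = 2.05e-26) that appeared as cassette exons, so that these A5SS and SE events share reads. BRF1, a subunit of the RNA polymerase III factor TFIIIB, had 0.606, 0.467 and 0.82 with DMSO and 0.202, 0.269 and 0.213 with GSK591 over a segment of 14876 bases (adjusted p = 0.0061, but 0.0557 without DMSO library c). Its controls were widely spread, although they did not overlap the treated libraries. The BRF1 segment lies in no annotated exon. The A5SS segments of OGFOD2 and TMEM256-PLSCR3 are annotated only in transcripts classed as retained introns.

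At 3′ sites, STAG3L4, a relative of the cohesin gene STAG3, used the upstream site more, from 0.169, 0.142 and 0.165 to 0.658, 0.709 and 0.612 (adjusted p = 7.68e-16). Its reads may be shared with near-identical copies of the family. WBP1, a ligand of WW domains, rose from 0.44 ± 0.0496 to 0.918 ± 0.017 (adjusted p = 4.98e-15) and RNF216, a ubiquitin ligase, from 0.0939 ± 0.042 to 0.516 ± 0.122 (adjusted p = 9.68e-18). RHPN1 fell from 0.894 ± 0.0457 to 0.504 ± 0.0284 (adjusted p = 3.97e-08), TMEM141, a small membrane protein, from 0.627 ± 0.0204 to 0.263 ± 0.0344 (adjusted p = 5.07e-21) and NUP62, a nucleoporin, from 0.593 ± 0.0932 to 0.211 ± 0.0213 (adjusted p = 4.97e-07). The A3SS segments of STAG3L4, RHPN1 and TMEM141 are annotated only in transcripts classed as retained introns. Reads inside them count, and site use was not told apart from intron reads. Segments inside an intron that the same comparison listed as retained were 16.6% of A3SS events called lower, 12.6% of those called higher and 11% of events of the same depth. For A5SS these shares were 18.2%, 14.9% and 10.8%, and for SE they were 4.01%, 1.78% and 1.49%. Whether retained introns account for part of these calls was not tested, and outside such introns 3146 SE, 267 A3SS and 424 A5SS events were called.

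**Figure D3:**
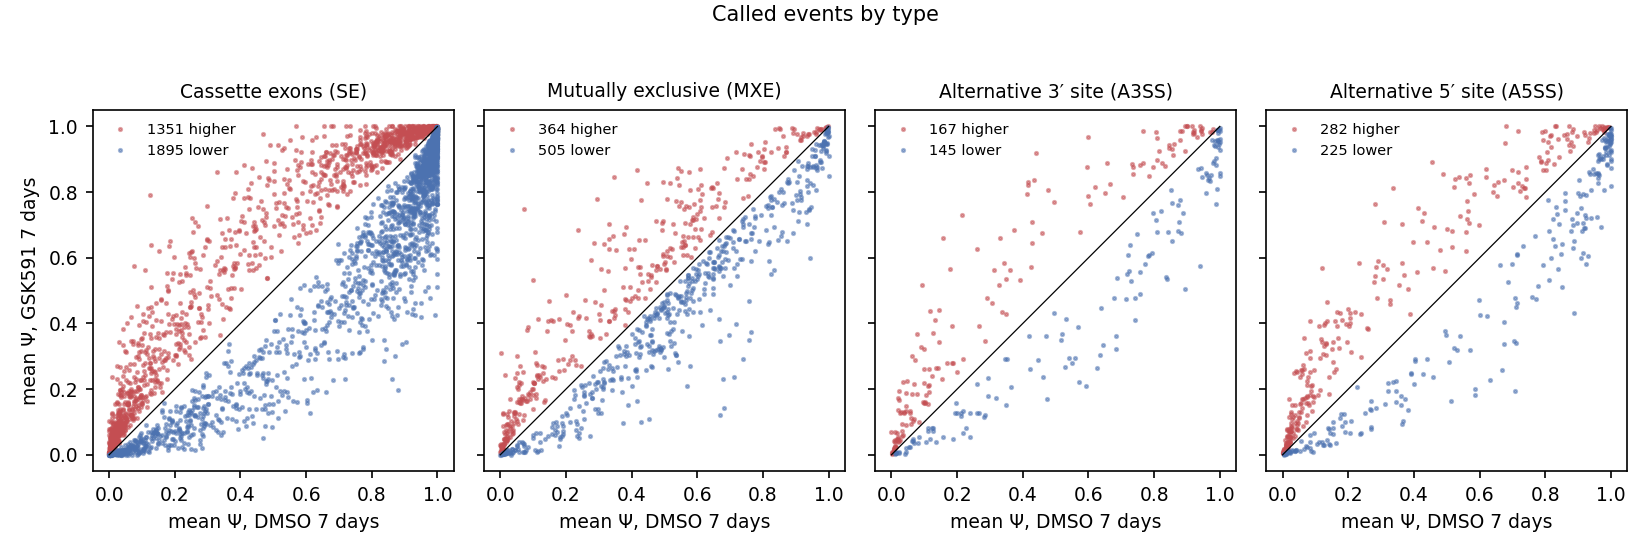
Mean Ψ with GSK591 (y axis) against mean Ψ with DMSO (x axis) at 7 days, both from 0 to 1, for every called event of each type, red where higher and blue where lower with GSK591; the line marks equal values. Of the SE events 1351 lie above and 1895 below the line. The losses begin mainly at a high Ψ in DMSO, where most cassette exons with at least 10 reads on the less used form also lie (median 0.903).

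Genes of the epithelial and mesenchymal isoform program had 25 of 37 called (67.6%, against 23.7% of all genes). Of their 660 events 24 were higher and 32 lower (8.48% called, against 5.03% of all events). MICAL3, a monooxygenase that acts on actin, gained a 63-base exon, from 0.0912, 0.0553 and 0.179 to 0.552, 0.683 and 0.453 (adjusted p = 3.32e-11). CD44, the hyaluronan receptor, had its 204-base variable exon at chr11:35232793-35232996 at 0.495, 0.441 and 0.574 with DMSO and at 0.89, 0.856 and 0.849 with GSK591 (adjusted p = 3.42e-10). These levels belong to transcripts with a shorter form of the upstream exon, on at least 67 reads per library. With the flanks that carry the most reads, at least 1065 per library, the same CD44 exon was at 0.0353, 0.0313 and 0.034 with DMSO and at 0.117, 0.0934 and 0.104 with GSK591 (adjusted p = 1.86e-39), so it rose there too but stayed rare. MPRIP, which targets myosin phosphatase to actin, rose from 0.596, 0.587 and 0.673 to 0.9, 0.877 and 0.878 at a 63-base exon, on at least 799 reads per library (adjusted p = 1.77e-55). No control reached a treated library in these 3 genes. In CTNND1, p120 catenin, 12 events were called and all were lower, among them a 5′ site 73 bases downstream that went from 0.364 ± 0.0253 to 0.0933 ± 0.0157 (adjusted p = 0.000106). MAP3K7, the kinase TAK1, fell at an 81-base exon from 0.228 ± 0.0581 to 0.0653 ± 0.0144 (adjusted p = 1.24e-06), the only call among its 4 tested events.

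DNA repair genes were called about as often as all genes, 21 of 79 (26.6% against 23.7%), but their called events were 40 lower and 10 higher, of 1192 (4.19% called, against 5.03% of all events). Of these genes 12 had only losses, 5 only gains and 4 both, and the losses include 7 events of ERCC1 and 9 of MUTYH, which share exons. MUTYH, a glycosylase of oxidative base repair, lost a 191-base exon followed by an intron of 88 bases, from 0.823, 0.828 and 0.951 to 0.503, 0.356 and 0.382 (adjusted p = 4.7e-05). ERCC1, part of a nuclease of nucleotide excision repair, lost a 69-base exon, from 0.647, 0.638 and 0.686 to 0.326, 0.553 and 0.284 (adjusted p = 4.8e-06). GSK591 library b was nearer to the controls than the other two there, and with the flanks that carry the most reads, at least 124 per library, the ERCC1 exon was at 0.997 ± 0.00449 and 0.997 ± 0.00554 and was not called (adjusted p = 0.962). A 231-base exon of XPA, a scaffold of the same pathway, rose from 0.107 ± 0.0199 to 0.37 ± 0.113 (adjusted p = 7.24e-07), and the polymerase POLK fell from 0.878 ± 0.108 to 0.592 ± 0.0715 at an 84-base exon (adjusted p = 0.0303). Its more deeply read event, with at least 35 reads per library, was at 0.853 ± 0.0981 and 0.807 ± 0.0406 and was not called (adjusted p = 0.8). The call of the first POLK event was lost without DMSO libraries a or b or GSK591 libraries a or c, with an adjusted p of up to 0.234.

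Mitosis and cell division genes had 30 of 109 called (27.5%, against 23.7% of all genes), with 18 events higher and 30 lower of 1335 (3.6% of events, against 5.03% of all), so the list stood near the background. CDC25B, a phosphatase that activates CDK1, lost a 123-base exon between introns of 244 and 105 bases, from 0.822, 0.855 and 0.845 to 0.563, 0.604 and 0.61 (adjusted p = 1.86e-29). AURKA, the Aurora A kinase, rose from 0.247 ± 0.0239 to 0.547 ± 0.0375 at a 98-base exon (adjusted p = 1.29e-07) and from 0.261 ± 0.0166 to 0.48 ± 0.0777 with other flanks and at least 280 reads per library (adjusted p = 5.38e-14). AURKB fell from 0.716 ± 0.072 to 0.397 ± 0.0715 in an exclusive pair (adjusted p = 0.00609), and KNTC1, of the kinetochore, fell from 0.949 ± 0.03 to 0.69 ± 0.059 (adjusted p = 0.0238). The AURKB call was lost without DMSO library b or GSK591 library c (adjusted p 0.0546 and 0.0669), and that of KNTC1 without DMSO library b or any GSK591 library (up to 0.274).

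The p53 and apoptosis list had 9 of 31 genes called (29%, against 23.7% of all genes), with 6 events higher and 5 lower of 329 (3.34% of events, against 5.03% of all), which is also near the background. In XIAP, an inhibitor of caspases, a 909-base exon fell from 0.608 ± 0.0449 to 0.386 ± 0.0369 (adjusted p = 2.63e-07). With 2 other flanks and at least 257 reads per library the XIAP exon did not fall. It was at 0.933 ± 0.0188 and 0.947 ± 0.0498 and at 0.919 ± 0.0213 and 0.941 ± 0.00566, and was not called (adjusted p 0.897 and 0.724). The longer exon of CASP8, an initiator caspase, rose from 0.154 ± 0.0274 to 0.344 ± 0.0176 (adjusted p = 4.27e-11). In an event listed as MXE, the share of the 75-base exon of MDM2 rose from 0.396 ± 0.0432 to 0.511 ± 0.0215 (adjusted p = 0.0243). An annotated transcript holds both MDM2 exons of that event, so the rise need not be a choice between them. The MDM2 call was lost without DMSO library a, GSK591 library a or GSK591 library b (adjusted p up to 0.203). MDM4, a partner of MDM2 in the restraint of p53, had 4 tested events and none called. Its 68-base exon, whose skipping gives a short, unstable form, was at 0.767, 0.589 and 0.864 with DMSO and at 0.563, 0.654 and 0.37 with GSK591. The groups overlapped (ΔΨ −0.211, adjusted p = 0.511), with SDs of 0.14 and 0.145 and as few as 13 reads in a library. BCL2L1 had 1 tested event, at a 5′ site, which fell from 0.96 ± 0.00783 to 0.912 ± 0.00399 (adjusted p = 3.86e-05), and KAT5, an acetyltransferase of DNA damage signalling, had 5 tested and none called. The most deeply read SE or MXE events of MDM4, KAT5, PKM, CD44 and MAP3K7 were not called, with DMSO means of Ψ between 0.992 and 1.

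Histone modifying enzymes had 17 of 72 genes called (23.6%), the share of all genes, with 11 events higher and 18 lower of 830 (3.49% called). CREBBP, an acetyltransferase and coactivator, lost a 45-base coding exon preceded by an intron of 353 bases, from 0.878, 0.847 and 0.813 to 0.565, 0.441 and 0.654 (adjusted p = 2.17e-05). KDM4C, a demethylase of histone H3, rose from 0.0673 ± 0.0319 to 0.421 ± 0.0691 at a 924-base exon (adjusted p = 7.42e-15), SETD5 fell from 0.507 ± 0.0667 to 0.205 ± 0.0792 (adjusted p = 0.000119) and KDM6A, also a demethylase, rose from 0.277 ± 0.151 to 0.565 ± 0.127 (adjusted p = 0.00894). The KDM6A call was lost without DMSO library b, GSK591 library a or GSK591 library c (adjusted p 0.294, 0.0584 and 0.19). With another flank and at least 37 reads per library the SETD5 exon was at 0.431 ± 0.0402 and 0.245 ± 0.113 and was not called (adjusted p = 0.0556).

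The 4-day experiment shares no library with the 7-day experiment and shows which changes were already present. At 4 days 6.51% of SE events were called, and 1.45% were called higher. Of the 1852 SE events called lower at 7 days and also tested at 4 days, 1785 were lower at 4 days (96.4%, against 61.2% of all 54702 SE events tested at both times) and 1250 were called lower, whereas 2 were called higher. Of 1318 events called higher at 7 days, 1043 were higher at 4 days (79.1%, against 38.8% of all), 494 were called higher and 44 were called lower. The median ΔΨ of the losses was −0.0935 at 4 days and −0.105 at 7 days, and that of the gains 0.035 and 0.0909. BIN1 had a ΔΨ of −0.451 at 4 days, GPR137 of −0.475 and PCBP2 of −0.321, so these losses were about as large at the earlier time. At 2 days, with no control group of its own, the Ψ of these exons was 0.316 ± 0.0561, 0.577 ± 0.0861 and 0.669 ± 0.0216.

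The effects at both times differed in 648 of 54702 SE events (1.18%, test of the difference of log odds), and in 543 of these (0.993%) the log odds moved higher at 7 days. The median ΔΨ of the 543 was −0.0819 at 4 days and 0.0208 at 7 days, and 328 of them were lower than control at 4 days and higher at 7 days. Among named exons, MPRIP had a ΔΨ of −0.0257 at 4 days and 0.267 at 7 days (adjusted p of the difference 1.37e-37), SNRNP70 of 0.0855 and 0.26 (1.31e-50), HNRNPC of −0.0665 and −0.169 (1.16e-10) and SMPD4 of 0.192 and 0.446 (1.81e-05). SNRNP70 transcripts carried the exon at a Ψ of 0.0533 ± 0.00858 after 2 days in GSK591, which became 0.13 ± 0.00948 after 4 days and 0.312 ± 0.0285 after 7 days. The DMSO levels also differed between the times, for MPRIP 0.71 ± 0.0261 at 4 days and 0.618 ± 0.0473 at 7 days, and the time of culture and the batch cannot be told apart. In the exons with 2 introns under 500 bases the shift was −0.0583 at 4 days and −0.0504 at 7 days, and in those with neither it was −0.014 and 0.00371.

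**Figure D4:**
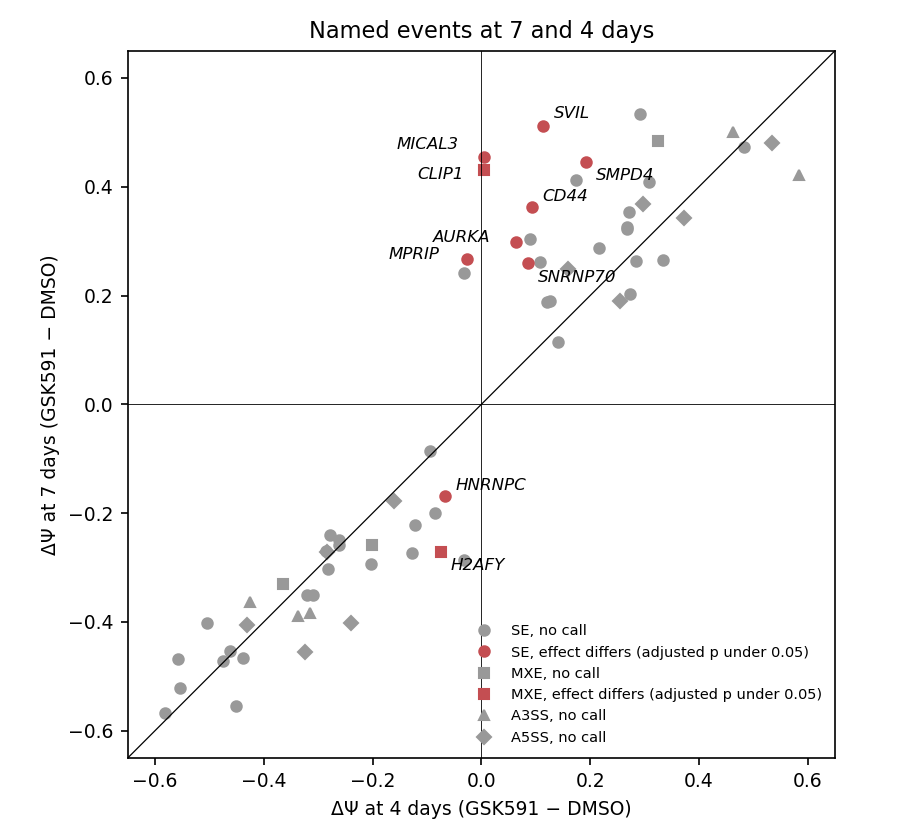
ΔΨ at 7 days (y axis) against ΔΨ at 4 days (x axis) for the named events tested at both times, with symbols for the event types and red where the effects differed at an adjusted p under 0.05; the line marks equal effects. Most events lie along the line, and MPRIP, MICAL3, CLIP1 and CD44 lie above it, between −0.0257 and 0.0936 at 4 days and between 0.267 and 0.454 at 7 days.

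MS023 was compared with GSK591 directly at 7 days, both at 1 µM, since the 2 inhibitors share their DMSO controls. Of 59004 SE events tested 5009 differed (8.49%), 2128 of them higher with GSK591 (3.61%). Of the SE events called lower with GSK591 against DMSO, 1317 of 1829 were also lower than with MS023, and of those called higher 809 of 1321 were also higher than with MS023. Both counts use the same GSK591 libraries that made the first call. MS023 values for BIN1, GPR137, PCBP2 and STK39 were 0.711 ± 0.0362, 0.876 ± 0.0827, 0.884 ± 0.0349 and 0.455 ± 0.0358, nearer to the DMSO levels than to those with GSK591 (adjusted p of the direct test between 1.47e-43 and 2.07e-19). The macroH2A1.2 exon stood at 0.805 ± 0.014 with MS023 and 0.561 ± 0.0237 with GSK591 (adjusted p = 5.09e-11). By contrast SRRM1 was at 0.722 ± 0.0532 with MS023 and 0.677 ± 0.0195 with GSK591, and CLIP1 at 0.463 ± 0.121 and 0.531 ± 0.117, differences that missed the threshold in the direct test (adjusted p = 0.578 and 0.805). Some exons lay between. SNRNP70 was at 0.148 ± 0.00708 with MS023 against 0.0523 ± 0.0125 with DMSO, and HNRNPC at 0.739 ± 0.00175 against 0.821 ± 0.0027, both short of the levels with GSK591 (adjusted p of the direct test 9.12e-132 and 8.58e-20). In exons with 2 introns under 500 bases, the mean Ψ with MS023 minus DMSO was −0.00105, beside −0.0504 with GSK591.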

How the data were processed

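The authors sequenced poly(A) RNA with stranded paired-end reads and, per the labels and the submitters' processing notes, used Trim Galore 0.6.5, STAR 2.4.2a and rMATS on the hg19 genome. The deposited tables give, per event and library, whole-number inclusion and skipping read counts, which include reads inside the alternative segment, with the lengths of both forms. Deposited p-values, false discovery rates and inclusion differences hold the authors' own results and were not used. The tables name their groups by code, and the libraries carry no replicate number.

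Ψ was calculated from the counts over the lengths of the forms. Events with at least 10 reads in each library were tested with a quasi-binomial logistic model in R 4.3.3, with the dispersion moderated by limma 3.58.1 (squeezeVar) and held at 1 or more. The prior came from events with at least 30 reads on the less used form, a choice made after seeing the data. P-values are two-sided and were adjusted by Benjamini-Hochberg within each event type, and an event was called at an adjusted p under 0.05. On simulated counts in which 200 events of each type with at least 30 reads on the less used form were given a log2 odds shift of 1, calls were made for 11.5% of the changed SE, 57% of MXE, 38.5% of A3SS and 34% of A5SS events, and 11.5%, 7.32%, 0% and 0% of the calls were false. For the difference between 7 and 4 days calls were made for 8% of the changed SE events, with 5.88% of calls false. Most changes of that size at SE events were thus missed in the simulation. It changed only 200 of 70375 SE events, whereas 3246 were called in the data. The adjustment for multiple tests is stricter where fewer events change, so the simulated shares do not give the share missed in the data. Effects at 7 and 4 days were compared by an interaction term, and GSK591 with MS023 directly. Mean shifts were tested by exact permutation. Annotation was GENCODE on GRCh37, and sequences were read from that genome with pysam 0.24.0.

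Events named were, by rule, the largest called differences with at least 50 reads per library (6 SE and 3 of each other type per direction), up to 4 per gene list with at least 20 reads, and 6 fixed genes. A named event that is withheld is not reported here. The members and the lists were chosen with earlier results of these data known. Alternatives included limma on log odds, other read minimums, no length correction and leaving out each library. P-values cover the spread between these libraries, which may be technical, and the number of reads limits precision at thinly read events.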

Additional observations from a re-analysis of the deposited data

Results flagged for a closer look

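A GSK591 effect that differed between 7 and 4 days, by a test of the difference itself, was seen in 648 SE events and in 10 named events given here. The named events, each with the adjusted p of the difference and its ΔΨ at 7 and then 4 days, fall into groups. SVIL (0.00304, 0.511 and 0.114), SMPD4 (1.81e-05, 0.446 and 0.192), SNRNP70 (1.31e-50, 0.26 and 0.0855), AURKA (0.0289, 0.299 and 0.0645) and CD44 (0.00201, 0.362 and 0.0936) had a larger gain at 7 days. H2AFY (2.9e-05, −0.271 and −0.075) and HNRNPC (1.16e-10, −0.169 and −0.0665) had a larger loss at 7 days. CLIP1 (0.00639, 0.43 and 0.00527) and MICAL3 (0.00146, 0.454 and 0.00418) gained at 7 days and lay near 0 at 4 days. MPRIP (1.37e-37, 0.267 and −0.0257) had opposite signs. With limma on log odds weighted by reads, AURKA, MICAL3 and CD44 missed the threshold (0.0566, 0.0741 and 0.0711) and the others passed it. In CLIP1 and MICAL3 the DMSO levels differed as well, at 0.247 ± 0.0131 and 0.379 ± 0.205 at 4 days against 0.101 ± 0.0259 and 0.109 ± 0.0637 at 7 days (SD, n = 3).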

How the results depend on the processing

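The number of calls depended on the test. Unweighted limma on log odds called 191 SE, 170 MXE, 0 A3SS and 4 A5SS events, 0 differences between 7 and 4 days and 2870 between GSK591 and MS023, although at an unadjusted p under 0.05 it had 10365 SE, 802 A3SS and 4924 time differences. With weights by reads, added after seeing the data, it called 4102 SE (2909 of them shared), 790 MXE, 298 A3SS and 513 A5SS events and 534 time differences (426 shared). A prior from every event, also added later, gave 6020 SE events. A minimum difference of 0.1 left 1622 SE, 346 MXE, 155 A3SS and 270 A5SS events. Leaving out 1 library gave 2306 to 2535 SE, 467 to 907 MXE, 208 to 262 A3SS and 377 to 442 A5SS events, 440 to 630 time differences and 3763 to 4114 between the inhibitors. Without length correction the A5SS mean shift was 0.00626 and that of exons with both introns under 500 bases −0.0374. Of 73 named called events none changed sign under these settings, 63 missed the threshold with unweighted limma, 2 with weights (SRPK2 0.0801, KDM6A 0.0645) and 16 without some library. The cause of these differences was not tested. No paired analysis was possible because the columns carry no replicate numbers. Reads limit thinly covered events, and libraries of 1 line limit all.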
